A study of Mus musculus with 2 samples.

Results

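Bidirectional promoter lncRNAs are long noncoding RNA genes that start head to head with another gene, usually a protein-coding gene, and run away from it on the opposite strand. They were examined on the chromatin of mouse macrophages stimulated through TLR4. The set holds every GENCODE M21 gene with at least 1 transcript annotated as a bidirectional promoter lncRNA and none annotated as protein-coding. Host genes of small nucleolar RNAs and microRNAs and 4 well-known lncRNAs (Gas5, Zfas1, Kcnq1ot1 and Pvt1) were to be left out by symbol. This gave 214 of 55536 annotated genes. The rule uses the annotation only and no measured value, but it was chosen with earlier results of these data known.

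The cells were bone marrow-derived macrophages (BMDM), grown from marrow of C57BL/6J mice and given lipid A, the TLR4-binding part of lipopolysaccharide, at 100 ng/ml for 75 min. Ribosomal RNA was depleted and the RNA that stays with chromatin was sequenced, which favours transcripts still being made or held at their gene. The series has 1 group of 2 libraries, labelled as biological replicates 1 and 2, made from 250 and 500 ng of RNA. Both carry the same donor label, sex and age were not collected, and nothing says that the cultures came from separate mice, so each SD (n = 2) measures the spread of these libraries only. Unstimulated cells were not analysed here, and no value below is a response to lipid A.

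Most mammalian promoters start RNA polymerase II in both directions. On the coding side the nascent RNA is rich in sites for U1 snRNP, the splicing particle that also blocks early polyadenylation. On the other side early poly(A) signals and the Integrator and restrictor complexes tend to end transcription close to the start, and the nuclear exosome degrades the short product (a promoter upstream transcript). Bidirectional promoter lncRNAs are the annotated cases in which the upstream direction gives a longer, often spliced RNA.

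Annotated genes held 21453617 estimated counts in replicate 1 and 29638814 in replicate 2. TPM, the length-scaled share of a library, was higher in replicate 2 for 93.0% of the genes with 1 TPM or more in both libraries, with a median ratio of 1.79. A TPM that is higher in replicate 2 is therefore common to most genes. Of 10 macrophage markers, 9 reached 1 TPM in both libraries, and all 10 summed to 434 and 683 TPM, with Mrc1 the highest at 125 and 192 TPM. The exception was Fcgr1 (0.93 and 2.09 TPM). None of the 4 T cell, 4 B cell, 4 neutrophil or 4 fibroblast markers did, with Cd4 the highest at 1.51 and 0.65 TPM. In bulk RNA, fewer cells of a type and less RNA per cell cannot be told apart.

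Few of these lncRNAs were abundant on chromatin. In replicate 1, 16 of 214 had 1 TPM or more, and in replicate 2, 35 did. All of the 16 also passed in replicate 2, so 16 (7.48%) are called expressed here, beside 17.4% of all annotated genes. Only 7 had a mean of 5 TPM or more and 3 had 10 or more. The median over all 214 was 0.005 TPM in replicate 1 and 0.045 in replicate 2 (SD of these medians 0.0283), and 0.055 TPM for the mean of both. A count of 3, taken as the detection floor, was worth a median of 0.116 and 0.107 TPM for these genes. The median gene thus lay under the floor, and for such genes absence cannot be told from a level too low to be seen. No count was assigned to 83 genes (38.8%) in either library. Another 98 had counts in both, 24 in replicate 2 alone and 9 in replicate 1 alone.

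Other noncoding classes from the same tables put this in context. Of 5853 other lincRNAs 2.73% were expressed, of 2959 antisense genes 12.6% and of 22028 protein-coding genes 34.7%. Of the GENCODE classes processed transcript (767 genes), TEC (3219) and sense intronic (327), 13.4%, 17.7% and 24.5% were expressed. Genes without a single count made up 78.9% of the lincRNAs, 49.8% of the antisense genes and 33.6% of the coding genes. For processed transcript, TEC and sense intronic genes this share was 44.1%, 44.9% and 30.9%. By detection sense intronic genes came first, and the bidirectional promoter lncRNAs (38.8%) lay between the antisense and the coding genes. Those expressed had a median of 3.38 TPM, against 4.89 for lincRNAs, 4.33 for antisense genes and 8.18 for coding genes.

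Together the 214 genes took 5398 counts (0.0252% of the library) in replicate 1 and 19071 (0.0643%) in replicate 2. The exact (Clopper-Pearson) 95% intervals are 0.0245% to 0.0258% and 0.0634% to 0.0653%, and cover counting error only. A single gene, A930037H05Rik, took 42.4% and 57.0% of those. The plot of levels by replicate shows how steeply the rest fell away.

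**Figure D1:**
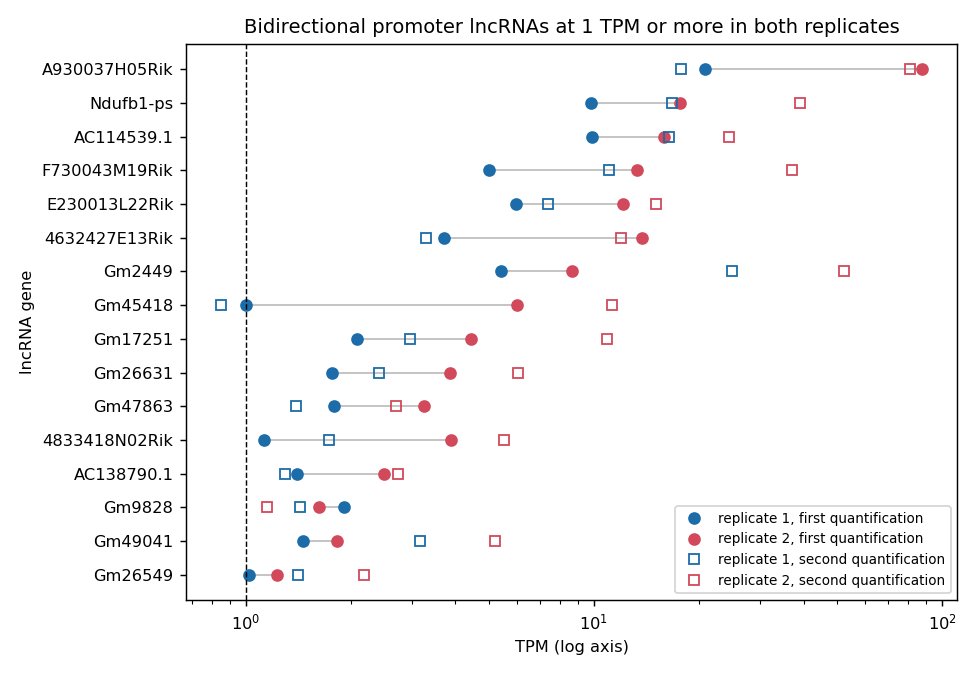
TPM on a log axis for the 16 lncRNAs at 1 TPM or more in both replicates, with 1 gene a row; filled circles are the first quantification, open squares the second, blue replicate 1, red replicate 2, and the dashed line marks 1 TPM. A930037H05Rik reaches 87.8 TPM in replicate 2, and replicate 2 is the higher library for every gene but Gm9828.

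A930037H05Rik (chromosome 11, 119448788 to 119491298, minus strand, mm10) stood at 20.9 and 87.8 TPM in replicates 1 and 2 (54.3 ± 47.3). Its coding neighbour across the promoter is Endov, endonuclease V, which cleaves RNA at inosine, with the start sites 49 bases apart. Endov had 4.37 and 4.08 TPM, so the lncRNA exceeded its partner 4.78-fold in replicate 1 and 21.5-fold in replicate 2. The body of the lncRNA lies antisense to Rnf213, a giant interferon-inducible ubiquitin ligase. Of its 9082 exonic bases, 8491 lie inside the span of a gene on the opposite strand and 1476 coincide with exons of other genes. Rnf213 itself was at 195 and 402 TPM. The labels and tables do not state if reads were counted by strand, so reads of Rnf213 and of the lncRNA cannot be told apart from these tables. A transcript annotated as retained intron, at chromosome 11, 119476052 to 119480432, held 40.7% and 46.7% of the gene's counts.

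The next genes also sat over neighbours. Ndufb1-ps (chromosome 12, 101968090 to 101977068) had 9.79 and 17.7 TPM (13.7 ± 5.57). Its symbol joins the suffix used for pseudogenes to Ndufb1, the name of a subunit of respiratory complex I. The symbol does not settle if the gene is a pseudogene or truly noncoding, and where its reads come from was not tested. Its 5′ end overlaps that of Cpsf2, a cleavage and polyadenylation factor subunit at 2.10 and 4.68 TPM, with start sites 1080 bases apart. AC114539.1 (chromosome 19, 46303591 to 46305611) had 9.85 and 15.9 TPM (12.9 ± 4.25). It overlaps the 5′ part of Nfkb2, which encodes the NF-kB subunit p100/p52, with 531 of 1764 exonic bases shared. Nfkb2 was at 214 and 227 TPM. Both pairs have start sites further than 1000 bases apart, the limit used for a promoter pair, and were left out of the pair counts.

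E230013L22Rik (chromosome 8, 11477929 to 11480241) had 5.98 and 12.2 TPM, with its 5′ end overlapping that of Rab20, a small GTPase of phagosomes and endosomes. Gm17251 (chromosome 17, 33759992 to 33761870) had 2.08 and 4.44 TPM beside Rab11b, a GTPase of recycling endosomes. Gm26631 (chromosome 9, 57531287 to 57537629) had 1.77 and 3.87 TPM, against 0.79 and 1.71 TPM for Fam219b. Its 3′ end lies inside the span of Cox5a on the opposite strand (7.12 and 12.7 TPM). Reads of that part cannot be told apart by strand here. Gm47863 (chromosome 12, 85597019 to 85599191) had 1.79 and 3.24 TPM opposite Jdp2, a repressor of AP-1, which was far higher at 74.7 and 181 TPM. For each of these 4, replicate 2 was higher in TPM while the ratio between the libraries after TMM scaling lay between -0.05 and 0.21 on the log2 scale.

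Among the 16 expressed genes, 6 share no exonic base with any other gene, so no overlapping exon bears on their reads. 4632427E13Rik (chromosome 7, 92734166 to 92741468, minus strand) had 3.72 and 13.8 TPM (8.75 ± 7.11), and 540 and 2206 counts over 7303 exonic bases. Its partner Rab30, a small GTPase of the Golgi, had 0.09 and 0.16 TPM. The noncoding side was thus the higher of the pair in both libraries. By the second quantification Rab30 had 1.55 and 1.25 TPM, nearer to the lncRNA with its mean of 7.62 TPM. Gm2449 (chromosome 9, 119887449 to 119894863) had 5.41 and 8.63 TPM beside Wdr48 (38.8 and 61.4 TPM), the cofactor of the deubiquitinase USP1. 4833418N02Rik (chromosome 17, 87274886 to 87282814) had 1.13 and 3.89 TPM beside Ttc7 (8.44 and 14.2 TPM), a scaffold of a phosphatidylinositol kinase complex.

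The other 3 were close to the threshold. AC138790.1 had 1.40 and 2.49 TPM beside Slc25a28, a mitochondrial iron importer, at 9.37 and 23.8 TPM. Gm49041 had 1.46 and 1.83 TPM beside the histone demethylase gene Kdm7a (9.85 and 29.4 TPM). Gm26549 had 1.02 and 1.23 TPM. Gm2449, 4833418N02Rik, AC138790.1 and Gm49041 were each lower than the coding side in both libraries.

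F730043M19Rik (chromosome 12, 33111711 to 33147597) had 4.99 and 13.3 TPM (9.13 ± 5.85) beside Atxn7l1, a relative of the ataxin-7 gene, at 19.5 and 39.5 TPM. Gm9828 (chromosome 13, 98316422 to 98324415) had 1.92 and 1.62 TPM and was the only expressed lncRNA with a lower TPM in replicate 2. It overlaps the 5′ end of Btf3, a subunit of the nascent polypeptide-associated complex (10.9 and 19.8 TPM). Gm45418 (chromosome 8, 61921746 to 61928028) had 1.00 and 6.01 TPM from 5 and 45.6 counts and was the gene nearest above the threshold. It stands across from Ddx60, an interferon-inducible antiviral helicase, at 17.5 and 44.3 TPM. The gene nearest below was Gm47962, at 0.97 and 1.16 TPM, with Nuak1, an AMPK-related kinase, at 0.49 and 0.89 TPM.

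The second quantification, made by the authors from a transcript index, gave many more of these genes a level. By it 54 of 214 (25.2%) had 1 TPM or more in both libraries, beside 29.0% of all genes, and 15 of the 16 were among them. The exception was Gm45418 (0.849 and 11.3 TPM). Levels were higher than in the first quantification for 147 genes and lower for 30, and Spearman's rho across the 214 genes was 0.621, a description over genes that share their libraries. Gm2449 moved from 5.41 and 8.63 to 24.95 and 52.3 TPM. AC132253.4, beside the chromosomal passenger gene Incenp, moved from 0 and 0.58 to 13.2 and 40.6 TPM. Genes with no count in either library numbered 38, against 83 in the first. A total of 9 genes with no count in the first had 1 TPM or more in both libraries in the second, with Gm44577 at 4.38 and 14.9 TPM. A930037H05Rik and 4632427E13Rik kept similar levels, at 17.7 and 80.9 TPM and at 3.30 and 11.95 TPM. What the further reads of the second quantification come from was not tested.

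In 190 of the 214 cases the nearest coding start on the opposite strand lay within 1000 bases, and each of these pairs had its own partner. The median distance was 148.5 bases. In 124 pairs the start sites were apart, with the promoter between them, and in 66 the 5′ ends overlapped. The remaining 24 genes had no such partner. Among the 190 partners 113 (59.5%) were expressed, against 34.7% of all coding genes. That difference is a description and was not tested.

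**Figure D2:**
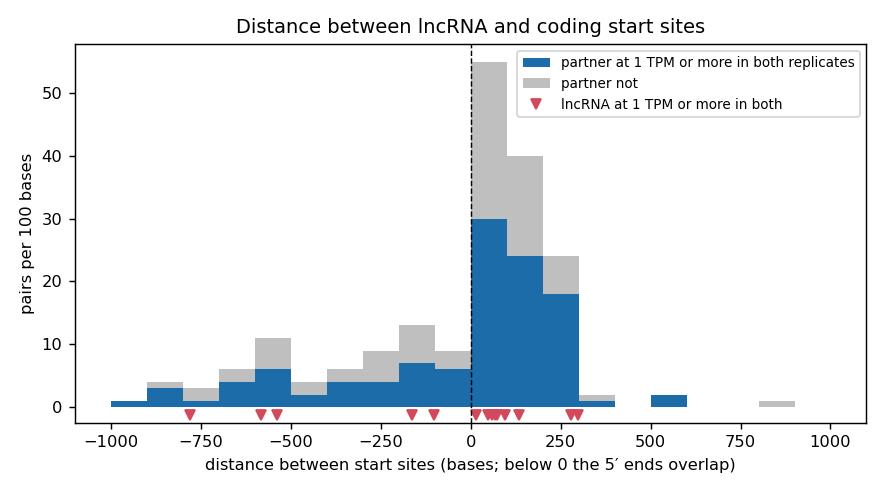
Number of pairs per 100 bases of distance between the lncRNA start and the coding start, with pairs of an expressed partner in blue and the others in grey; red triangles mark the 14 pairs with an expressed lncRNA, and distances below 0 are overlapping 5′ ends. Most pairs lie between 0 and 300 bases, and the triangles occur on both sides of 0.

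The coding gene was the higher of the pair in 159 of 190 pairs, and in 150 of these in both libraries separately. The lncRNA was higher in 11, in 8 of them in both libraries, and both genes were at 0 in 20. The median log2 ratio of TPM + 1, lncRNA over partner, was -1.65 in replicate 1 and -1.69 in replicate 2 (-1.66, SD 0.0275). Where the partner was expressed, the median lncRNA level was 0.2 TPM against 12.3 TPM for the partner. The ratio had a median of 1.28% (0.935% and 1.46% in replicates 1 and 2) and an upper quartile of 6.96%.

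The lncRNA was counted more often where its partner was expressed. With an expressed partner, 16 of 113 lncRNAs had no count, 44 had 20 or more counts over both libraries and 12 were expressed. With a partner that was not expressed, 53 of 77 had no count, 6 had 20 or more and 2 were expressed, namely 4632427E13Rik and Gm26631. By the second quantification the partners of both, Rab30 (1.55 and 1.25 TPM) and Fam219b (1.18 and 1.99 TPM), reached 1 TPM in both libraries. In the 117 pairs whose lncRNA shares no exon base with another gene, 11 of 72 had no count beside an expressed partner and 32 of 45 beside one that was not. With the expressed partners split by level into a low, a middle and a high group, the median partner level went from 3.50 over 12.3 to 46.7 TPM, and the median lncRNA level from 0.128 over 0.275 to 0.368 TPM. Genes with no count fell from 10 of 38 over 4 of 37 to 2 of 38. Across all 190 pairs Spearman's rho between the 2 levels was 0.613 and Pearson's r 0.313. These describe pairs that share both libraries, their depth and in part their exons, and carry no p-value.

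The pairs were also split by the arrangement of their starts. With starts apart 9 of 124 lncRNAs were expressed, with a median of 0.0675 TPM, and with overlapping 5′ ends 5 of 66, with a median of 0.0425 TPM. Exons shared with another gene were found in 13 of the 124 and in 60 of the 66. The difference was not tested.

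**Figure D3:**
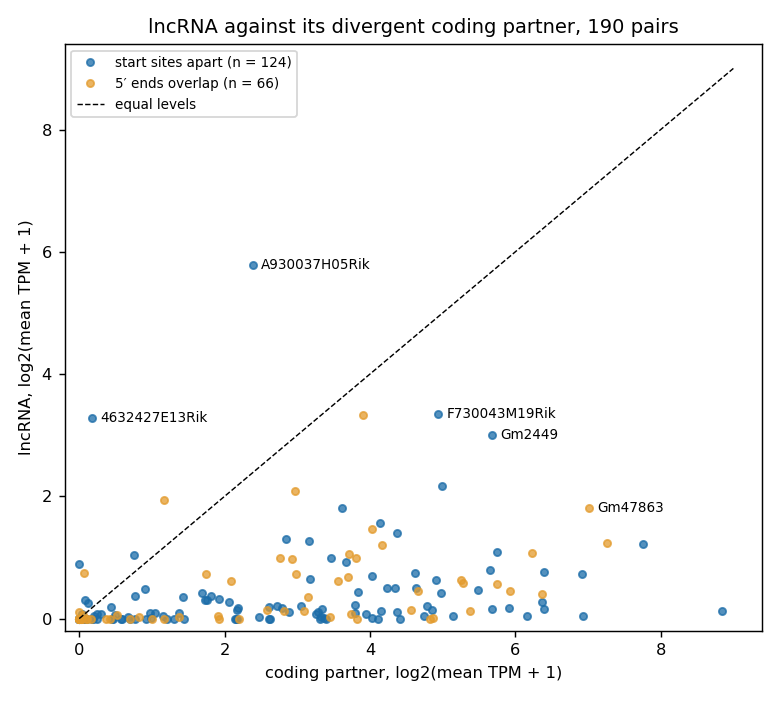
Mean level of each lncRNA against that of its coding partner, both as log2(TPM + 1), for 190 pairs, blue with start sites apart (124) and orange with overlapping 5′ ends (66); the dashed line marks equal levels. Most points lie under the line, and A930037H05Rik and 4632427E13Rik lie furthest above it.

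Pairs with both genes expressed numbered 12, and in 11 of them the coding gene was higher. The highest ratio after A930037H05Rik was that of E230013L22Rik to Rab20, at 0.648-fold of the means (0.760 and 0.604 in replicates 1 and 2). Gm17251 to Rab11b followed at 0.476-fold, F730043M19Rik to Atxn7l1 at 0.310-fold, 4833418N02Rik to Ttc7 at 0.222-fold and Gm2449 to Wdr48 at 0.140-fold. At the other end Gm47863 stood at 0.0197-fold of Jdp2. These ratios are from the first quantification, and the order of the named pairs differs by the second. There Gm2449 had a mean of 38.6 TPM against 52.4 and 86.5 TPM for Wdr48. Gm17251 had a mean of 6.93 TPM against 10.4 and 26.5 TPM for Rab11b. E230013L22Rik, Gm17251 and Gm47863 each overlap the 5′ end of the partner, and reads of that part cannot be told apart by strand here.

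Some of the highest coding partners faced a lncRNA under 1 TPM in at least 1 library. Srsf5, a splicing factor gene at 337 and 577 TPM, faced Gm20337 at 0.04 and 0.14 TPM (1.96 and 3.85 TPM by the second quantification). Picalm, a clathrin assembly gene at 149 and 279 TPM, faced 2310010J17Rik, which had no count in replicate 1 and 2.66 TPM in replicate 2, but 2.07 and 5.87 TPM by the second quantification. Man1a, a Golgi mannosidase gene at 91.2 and 213 TPM, faced Gm16998 at 0.91 and 1.78 TPM (1.94 and 4.55 TPM by the second). These 3 pairs were picked after their values were seen.

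Of the genes on the lists for the TLR4 response and macrophage identity, 4 were partners of a lncRNA of this class. They were 2 genes of the interferon and IRF list, 1 of the immediate early list and 1 of the negative feedback list. None belonged to the NF-kB primary response list (53 genes) or the macrophage identity list (40 genes). Over all 22028 coding genes only 190 were such partners, and the class lies on only 16 chromosomes. Counts this small, 0 included, therefore say nothing about the lists. Nfkb2, on the NF-kB list, is overlapped by AC114539.1 but falls outside the 1000-base limit. E230016M11Rik, beside the stress gene Gadd45a (12.4 and 13.6 TPM), had 0.69 and 1.28 TPM. Gm16675, beside Irf2 (16.9 and 30.1 TPM), a regulator of interferon-responsive genes, had 0.39 and 0.95 TPM. BC051226, beside Daxx (19.3 and 68.4 TPM), a chaperone of histone H3.3, had no count in replicate 1 and 0.76 TPM in replicate 2. Gm32786, beside the MAP kinase phosphatase gene Dusp8 (1.07 and 1.41 TPM), had no count in either. All of these lncRNAs were below 1 TPM in replicate 1.

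The DNA between the start sites is printed for 8 divergent pairs, since the lncRNA and the coding RNA begin at its ends. They include the highest divergent lncRNAs and 2 whose partners were on a response list. Each is the whole stretch between the GENCODE starts, read 5′ to 3′ on the strand of the lncRNA from RefSeq promoter windows (GRCm38.p6), so the lncRNA begins right after the last base. Capitals mark a GC box (GGGCGG, known for SP and KLF factors), a CCAAT box (CCAAT, NF-Y), an interferon-stimulated response element (GAAANNGAAA, IRF factors) or a ZNF143 site (ACTACAANNCCCAGNATGC), on either strand. The ZNF143 site was added to the search after these sequences were seen.
A930037H05Rik and Endov (chr11:119491299-119491346): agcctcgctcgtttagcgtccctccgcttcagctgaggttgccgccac
F730043M19Rik and Atxn7l1 (chr12:33147598-33147692): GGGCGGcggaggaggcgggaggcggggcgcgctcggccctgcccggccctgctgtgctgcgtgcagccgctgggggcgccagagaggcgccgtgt
4632427E13Rik and Rab30 (chr7:92741469-92741602): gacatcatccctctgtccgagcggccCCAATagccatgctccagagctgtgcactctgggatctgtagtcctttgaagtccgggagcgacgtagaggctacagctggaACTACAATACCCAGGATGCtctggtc
Gm2449 and Wdr48 (chr9:119894864-119894877): gagagttgaagcgc
Gm45418 and Ddx60 (chr8:61928029-61928086): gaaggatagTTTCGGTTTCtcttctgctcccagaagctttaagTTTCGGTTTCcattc
4833418N02Rik and Ttc7 (chr17:87282815-87282885): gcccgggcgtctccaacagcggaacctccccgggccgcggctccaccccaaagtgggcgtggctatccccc
Gm16675 and Irf2 (chr8:46739516-46739731): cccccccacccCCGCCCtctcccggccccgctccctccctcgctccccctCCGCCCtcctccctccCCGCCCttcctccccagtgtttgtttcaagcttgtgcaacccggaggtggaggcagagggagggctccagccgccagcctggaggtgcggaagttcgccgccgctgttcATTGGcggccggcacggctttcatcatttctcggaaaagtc
BC051226 and Daxx (chr17:33909318-33909413): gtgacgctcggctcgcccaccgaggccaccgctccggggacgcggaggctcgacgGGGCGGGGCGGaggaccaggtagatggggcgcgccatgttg

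The shortest of these, between Gm2449 and Wdr48, has 14 bases, and the longest, at Irf2, has 216. The stretch at Atxn7l1 is 82.1% G and C with 13 CG dinucleotides. The stretch at Ddx60 has the lowest G and C content of the 8, at 43.1%, holds 2 CG dinucleotides and carries the interferon element TTTCGGTTTC at 2 places. The stretch at Rab30, where the noncoding side was the higher, holds a CCAAT box and a ZNF143 site next to the lncRNA start. A match is a description of letters and not evidence that a factor is bound.

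RefSeq promoter windows of 300 bases (250 before to 50 after the RefSeq start) were matched by symbol for 106 of the 214 genes (49.5%). No limit was set on the distance from the GENCODE start. Some windows lie far from it, as for Gm26708 (80862 bases), 4930597O21Rik (27655) and 4930527F14Rik (13352), and do not cover the promoter of the annotated lncRNA. As under 80% have a window, a check over the class is void, and these values describe the 106 only. Their median G and C content was 66.0% against 52.7% over all 32851 windows, and the median ratio of observed to expected CG dinucleotides was 0.839 against 0.384. A GC box was in 64.2% of the 106 and in 35.7% of all windows, and the ETS motif CCGGAAG in 18.9% and 8.86%. The TATA box (TATAAA) was in 3.77% against 13.6%, and the CCAAT box in 35.8% against 37.4%. The interferon element was in 1.89% against 3.44%, the AP-1 motif (TGANTCA) in 7.55% against 7.81% and the ZNF143 site in 1 of the 106, that of 4632427E13Rik, against 0.116%. The loose NF-kB pattern GGGNNNNNCC, which is itself rich in G and C, was in 72.6% against 50.8%. Gm45418 has no window among the 106, and its stretch was read from the window of Ddx60.

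The 3′ ends are where the noncoding side is thought to be cut short, and the annotated ends show the classical signal in part. AATAAA or ATTAAA stood in the last 50 bases of 167 of 327 transcripts of the class (51.1%), against 50.2% of coding, 42.0% of antisense and 38.5% of lincRNA transcripts. These sets are not alike. The 327 are the transcripts of the bidirectional type among the 373 of the class, so its retained introns and other types are left out. The coding set holds protein-coding transcripts only, while the antisense and lincRNA sets hold every transcript type of those genes. For 4 genes, the last 50 bases of the transcript with the most counts over both libraries follow, from the GENCODE M21 transcripts, with AATAAA in capitals.
AC114539.1: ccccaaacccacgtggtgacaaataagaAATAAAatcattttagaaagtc
F730043M19Rik: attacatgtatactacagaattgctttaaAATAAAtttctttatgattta
E230013L22Rik: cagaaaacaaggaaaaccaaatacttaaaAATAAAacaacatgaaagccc
A930037H05Rik: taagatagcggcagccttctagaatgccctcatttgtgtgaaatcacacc

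In the first 3 the signal begins 22, 21 and 21 bases before the end. The retained-intron transcript of A930037H05Rik (7.58 and 38.5 TPM, close to the 7.86 and 38.5 TPM of another of its transcripts) and the main transcript of 4632427E13Rik have neither signal in this window. These are ends of annotated models, and the 3′ ends in these libraries were not measured.

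The proteins that act on such transcripts were present as chromatin RNA, which is not a measure of protein. All 3 genes of U1 snRNP proteins were expressed, with Snrnp70 the highest at 167 and 223 TPM. Of 21 genes of the nuclear exosome and its adaptors 18 were expressed, with a median of 5.92 TPM. Zfc3h1, the scaffold of the poly(A) tail exosome targeting connection, was the highest at 82.1 and 133 TPM. The 16 measured cleavage and polyadenylation genes were all expressed (median 13.4 TPM), with Cpsf7 the highest at 31.3 and 63.4 TPM. Of 16 measured Integrator and restrictor genes 14 were, with Ints8 the highest at 14.9 and 30.5 TPM and the restrictor gene Zc3h4 at 9.66 and 16.1 TPM.

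With 1 group, the remaining comparison is of the 2 libraries with each other, gene by gene. Rounded expected counts were set against the share expected after TMM scaling by an exact two-sided binomial test over 14442 genes. A gene was called at an adjusted p under 0.05 (Benjamini-Hochberg) and a fold of 2 or more. This compares libraries and not conditions, since no spread between replicates of a condition enters it. Of the 214 genes 55 had the 20 summed counts needed. Among them 7 (12.7%) were called higher in replicate 2, beside 7.84% of all genes tested, and 3 (5.45%) lower, beside 4.2%. With library size alone as the scale 15 were higher and none lower, and the median of all genes moved from 0.06 to 0.62 on the log2 scale. The share of calls that point up thus depends on the scale.

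A930037H05Rik went from 2290 to 10873 counts (log2 ratio 1.22), while Endov, across its promoter, had -0.84 and Rnf213, over its body, 0.08. 4632427E13Rik went from 540 to 2206 counts (1.00), while Rab30 had only 7 and 9 counts, too few to be tested. Gm45418 went from 5 to 45.6 counts (2.18) and Ddx60 from 1889 to 5541 (0.53). The antisense gene 4930512H18Rik, whose exons share 325 bases with Gm45418, went from 9 to 96.4 counts (2.39), so their reads cannot be told apart. Beside this, 24 of 54 tested genes of the interferon and IRF list were called higher in replicate 2 and none lower, with a median log2 ratio of 0.93. Whether Gm45418 moved with them was not tested. In the second quantification the log2 ratio of A930037H05Rik was 0.99 and that of 4632427E13Rik 0.67, both under 2-fold, while Gm45418 stayed called at 2.48.

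The other 4 called higher had few counts. 9530018F02Rik, over the 5′ end of the fucosyltransferase gene Fut8, went from 19 to 176 counts (2.19). AA386476, beside Ing2, a reader of methylated histone H3, went from 10 to 48 (1.24), and AW046200 from 10 to 45.2 (1.14). By the second quantification the call of 9530018F02Rik remained (1.78), and those of AA386476 (0.34) and AW046200 (0.66) were lost. Gm44957, beside the ubiquitin ligase gene March8, went from 1 to 20 counts (3.30, or 9.82-fold with an exact 95% counting interval of 1.57 to 407), but the second quantification gave it 314 and 960 counts and a log2 ratio of 0.42.

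Lower in replicate 2 were E130317F20Rik, over the 5′ end of the splicing repressor gene Ptbp1 (39 and 33.5 counts, log2 ratio -1.27), 2410022M11Rik, beside Zmym5 (34 and 29, -1.26), and Gm9828 (36.4 and 33.4, -1.15). Raw counts of these 3 were close to equal in the libraries, and the calls depend on the TMM factor. With library size alone their log2 ratios were -0.71, -0.70 and -0.59 and none was called. In the second quantification their log2 ratios were -1.09, -1.71 and -1.53.

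**Figure D4:**
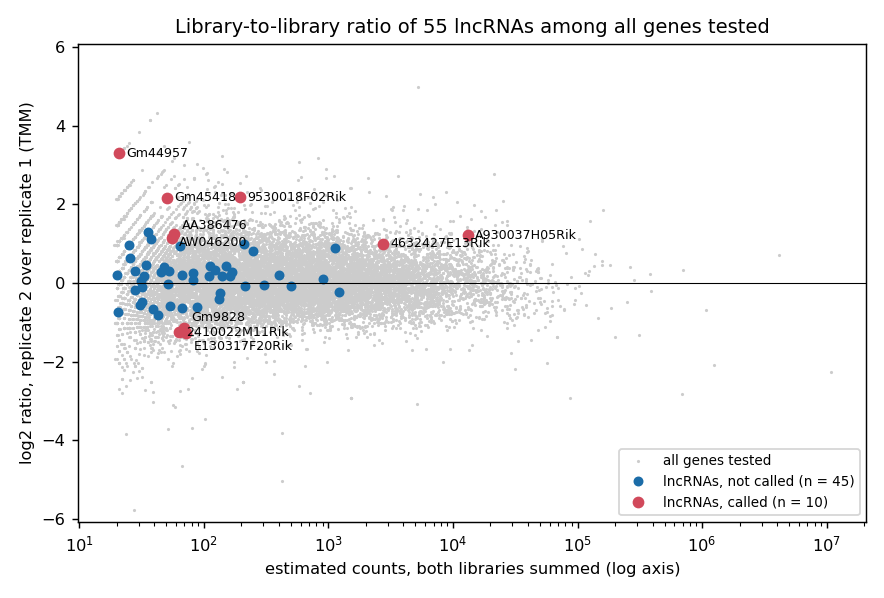
Log2 ratio of replicate 2 over replicate 1 after TMM scaling against summed estimated counts on a log axis, with 55 lncRNAs on all genes tested (grey); red points were called and blue were not. The 10 called genes include A930037H05Rik and 4632427E13Rik at high counts, while the other 8 have fewer than 200 counts each.

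Called lncRNAs were picked by their ratio in this comparison, and their partners were not. A larger ratio on the lncRNA side follows in part from that choice, and the difference was not tested. Of the 10 called lncRNAs 9 had a partner within 1000 bases. Rab30 had too few counts for the test, and none of the other 8 partners was called. These 8 are too few to read that as a result. Of 140 partners tested 2 were higher and 4 lower, beside 7.84% higher and 4.2% lower over all genes tested. In 24 pairs with 20 or more counts for each gene in each library, the signs were the same in 14 and the lncRNA ratio was above its partner's in 10. Spearman's rho of the ratios across these pairs was -0.0591 and Pearson's r -0.0786, given as a description. The counts of most lncRNAs are low, so a shared shift of small size was not detectable here.

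**Figure D5:**
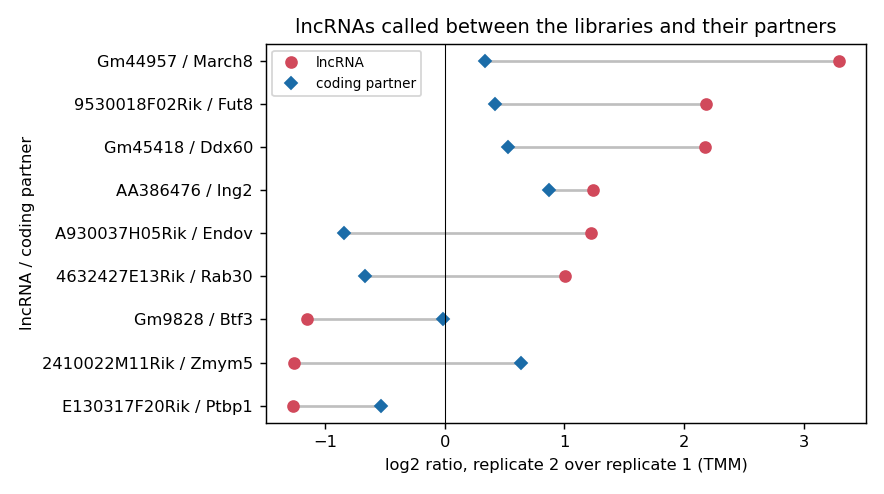
Log2 ratio of replicate 2 over replicate 1 after TMM scaling for the 9 called lncRNAs that have a partner (red circles) and for that partner (blue diamonds), with 1 pair a row. For A930037H05Rik with Endov, 4632427E13Rik with Rab30 (7 and 9 counts) and 2410022M11Rik with Zmym5 the points lie on opposite sides of 0. The lncRNAs were picked by this ratio and the partners were not.

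Of the 10 called, 7 share exon bases with another gene. Without such genes the calls fall to 2 higher and 1 lower, 4632427E13Rik, Gm44957 and 2410022M11Rik, a choice made after seeing the data. Across all 214 genes 89 share exon bases with another gene, and 10 of the 16 expressed genes do.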

How the data were processed

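For each library the authors deposited gene and transcript tables of expected counts and TPM made by aligning reads to the GENCODE M21 transcriptome of mm10, per the deposited text, and a transcript table of estimated counts and TPM from a transcript index, here summed per gene and called the second quantification. The column names are those of RSEM and kallisto; no source used here states which tools and versions were run or if strand was used. Levels are TPM, and the 5′ starts, classes and overlaps come from GENCODE M21 (mm10, the same sequence as GRCm38). A gene is expressed at 1 TPM or more in both replicates. A partner is the coding gene with the nearest opposite-strand start within 1000 bases. Pair ratios use log2(TPM + 1), which understates differences of low genes.

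Expected counts were rounded and compared between libraries with edgeR 4.0.16 in R 4.3.3 (exact binomial test, TMM factors 0.824 and 1.21, genes with 20 or more summed counts). DESeq2 1.42.0 size factors, library size, other minimums, distances and thresholds, and the second quantification were alternatives, and leaving out genes with shared exons was added for the calls after seeing the data. A test of this comparison on simulated counts of 14412 genes, with Poisson noise alone, called 199 of the 200 genes given a 4-fold change and 3 unchanged genes. The changed genes were drawn only from those with expected summed counts well above the 20 needed for a call. Recovery at 2-fold, at lower counts or with more than Poisson noise was not tested. In the real libraries 51.8% of all genes tested had an adjusted p under 0.05 at any fold by the binomial test. Tables were handled in Python 3.11.15 with pandas 2.3.3. Depth was 21453617 and 29638814 counts, and the floor is 3 counts.

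The members and lists were chosen with earlier results of these data known. Named genes are the 12 highest by mean TPM, those whose partner is on a response or macrophage list, the 5 with the largest and the 5 with the smallest library ratio among those with 20 or more counts in each library, the 6 with the highest ratio to an expressed partner, those nearest the threshold and the highest gene of each list; called genes are named as well. The partner of 1 expressed gene is not reported here.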

Additional observations from a re-analysis of the deposited data

How the results depend on the processing

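The number of expressed genes (16) was 30 at 0.5 TPM, 8 at 2 TPM, 6 without genes that share exons, 54 by the second quantification, and between 16 and 35 with a single replicate (35 without replicate 1). The median level (0.055 TPM) was 0.89 TPM for genes with 20 or more summed counts and 0.414 TPM by the second quantification, and ranged from 0.005 to 0.045 TPM with a replicate left out. The coding gene was higher in 159 pairs, in 102 pairs without shared exons and in 11 of the 12 with both genes expressed. The median log2 ratio (-1.66) was -3.29 with a pseudocount of 0.1, -1.49 within 2000 bases, -2.49 with both genes expressed and -1.70 by the second quantification, and lay between -1.69 and -1.65 with a replicate left out. Calls higher in replicate 2 (7) became 15 with library size alone, 4 by the second quantification and 2 without shared exons. Calls lower (3) became 0 with library size alone and 1 without shared exons. Of 15 named library ratios, 5 lost their call by the second quantification (A930037H05Rik, 4632427E13Rik, AA386476, AW046200 and Gm44957) and none changed sign; 4833418N02Rik (0.99) was called with DESeq2 size factors. Of the 12 highest levels, 5 moved by more than their SD by the second quantification. The causes were not tested. No paired analysis was possible because the series has 1 group. No count was given to 83 genes, or to 38 by the second quantification of the same libraries, so the zeros depend on how reads were assigned; the part of depth was not tested. Only 29 genes had 20 or more counts in each library.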
